A study of Homo sapiens with 17 samples.

Results

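The D and E cyclins, their kinases and the RB family were followed in SF8628 diffuse midline glioma (DMG) cells treated with AZD5153, an inhibitor of the BET bromodomain proteins, which read acetylated histones. The 10 genes, *CCND1*, *CCND2*, *CCND3*, *CDK4*, *CDK6*, *CCNE1*, *CCNE2*, *CDK2*, *RB1* and *RBL1*, were chosen by name from a table of 60664 genes. RNA-Seq was carried out on 12 libraries in 4 groups of 3. The groups were DMSO for 24 hours, 1 μM AZD5153 for 24 hours, DMSO for 48 hours and 1 μM AZD5153 for 48 hours. All libraries came from SF8628, a human line labelled DIPG (diffuse intrinsic pontine glioma) that carries an H3.3 K27M histone mutation, grown as adherent cells in medium with fetal bovine serum. It is a single cell line, and nothing in the labels says whether the 3 libraries of a group came from separate cultures, so the p-values measure only the spread between these libraries, which may be technical. Values are normalized counts, that is, reads on a gene divided by a size factor for the library. The test took in every gene whose average over the libraries reached 10 normalized counts, which left 15599 genes and 9 of the 10 members. *CCND2* was not tested.

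Progression from G1 into S phase is driven by cyclins, which bind and switch on cyclin-dependent kinases. D cyclins pair with CDK4 and CDK6, which begin to phosphorylate the RB proteins, and E cyclins pair with CDK2, which completes it. Unphosphorylated RB proteins hold E2F transcription factors inactive, so their phosphorylation lets E2F switch on the genes of DNA replication, among them *CCNE1*, *CCNE2* and *RBL1* themselves. The RB pathway is often disturbed in gliomas, by gain of the kinases or D cyclins or by loss of an inhibitor.

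The bases before the transcription start are shown for the members whose start in the RefSeq promoter table matched that of the canonical transcript, because members of the same pathway moved in different directions and their upstream sequences could be set side by side. Of the 10 members, 6 were in the table and 5 had a matching start. The 250 bases upstream of the start were read from RefSeq on GRCh38.p14, 5′ to 3′ on the strand of the gene. Capitals mark words searched on both strands, namely the E2F words TTTCCCGC, TTTGGCGC, TTTCGCGC and TTTGCCGC, the E-box CACGTG (a word bound by MYC and related factors) and the GC box GGGCGG (a word bound by SP1), and a word on the opposite strand appears as its reverse complement.
*RBL1* (chr20:37095998-37096247, minus strand, which fell at both times): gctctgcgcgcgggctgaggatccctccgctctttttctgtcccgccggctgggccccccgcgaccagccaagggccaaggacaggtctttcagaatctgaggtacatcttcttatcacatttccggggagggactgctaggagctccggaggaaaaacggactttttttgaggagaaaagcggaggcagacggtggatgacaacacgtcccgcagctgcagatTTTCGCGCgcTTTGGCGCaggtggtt
*CDK4* (chr12:57752311-57752560, minus strand, which fell at both times): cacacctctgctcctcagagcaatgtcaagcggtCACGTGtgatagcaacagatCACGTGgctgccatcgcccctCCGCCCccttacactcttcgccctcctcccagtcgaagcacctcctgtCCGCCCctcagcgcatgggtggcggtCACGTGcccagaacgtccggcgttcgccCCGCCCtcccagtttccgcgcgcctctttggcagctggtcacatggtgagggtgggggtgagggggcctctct
*CDK6* (chr7:92836574-92836823, minus strand, which fell at both times): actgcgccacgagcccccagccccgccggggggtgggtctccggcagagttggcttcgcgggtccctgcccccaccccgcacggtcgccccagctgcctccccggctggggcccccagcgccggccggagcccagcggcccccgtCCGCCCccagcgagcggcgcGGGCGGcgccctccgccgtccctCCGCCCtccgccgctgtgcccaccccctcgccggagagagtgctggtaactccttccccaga
*CCND3* (chr6:41941809-41942058, minus strand, which rose at both times): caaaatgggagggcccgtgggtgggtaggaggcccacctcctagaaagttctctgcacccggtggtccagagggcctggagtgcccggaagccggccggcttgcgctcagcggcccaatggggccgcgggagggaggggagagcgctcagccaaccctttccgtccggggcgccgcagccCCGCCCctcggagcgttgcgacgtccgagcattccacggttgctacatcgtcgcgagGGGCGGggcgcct
*CCNE1* (chr19:29811741-29811990, plus strand, which fell at 24 hours and rose at 48 hours): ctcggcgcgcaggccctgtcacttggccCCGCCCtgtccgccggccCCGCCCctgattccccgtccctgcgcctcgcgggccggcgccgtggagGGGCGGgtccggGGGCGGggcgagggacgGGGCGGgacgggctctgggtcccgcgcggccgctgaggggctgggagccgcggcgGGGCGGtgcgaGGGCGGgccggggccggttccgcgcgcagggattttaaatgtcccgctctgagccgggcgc

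The *RBL1* sequence held 2 E2F words, TTTCGCGC beginning 26 bases and TTTGGCGC beginning 16 bases before the start, and 0 of the other 4 sequences held one. An E2F word was present in 2.79% of 35116 promoter windows of the same length. The *CDK4* sequence held 3 E-boxes, which began 216, 196 and 101 bases before the start, against 6.35% of windows with at least 1, and the other 4 sequences held 0. GC boxes numbered 7 for *CCNE1*, 3 for *CDK4*, 3 for *CDK6*, 2 for *CCND3* and 0 for *RBL1*, and 42.6% of windows held at least 1. The counts depend on the start. Sequences before other RefSeq starts, not shown, held 5 and 0 GC boxes for *CCND3* and 0 for *CDK6*. The word TTTGAA of the cell cycle homology region was found in none of the 5 and in 13.3% of windows. C and G made up 81.2% of the bases for *CCNE1*, 80% for *CDK6*, 71.2% for *CCND3*, 65.6% for *CDK4* and 59.2% for *RBL1*. The median over all windows was 58%, and the shares of windows were not matched for this content. The words are matches of letters only.

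Libraries held 15759148 to 27335220 reads on genes. The first DMSO library at 24 hours stood apart from the other two of its group, at 16.8 and 25.6 chi-square per degree of freedom against 2.12 to 5.21 in the other 10 replicate pairs. Left out, it turned none of the AZD5153 effects on the members at 24 hours, and the members called were the same. Of 9 marker genes of glial progenitors and midline glioma, 5 averaged 10 normalized counts or more, whereas the defining markers *OLIG2* and *OLIG1* were at 0 in all 12 libraries. All 5 fibroblast or mesenchymal markers reached that level. Their summed level was 61155 to 76338 normalized counts in DMSO and 19285 to 20025 with AZD5153 at 24 hours, and 82039 to 88250 against 25420 to 25594 at 48 hours. The glial sum was 24127 to 32300 in DMSO and 19275 to 21057 with AZD5153 at 24 hours, and 20191 to 20981 against 16092 to 17643 at 48 hours. Most of it was *VIM* (mean 22869 against 18551 at 24 hours and 15327 against 15450 at 48 hours), which mesenchymal cells also express, whereas *NES* went from 2050 to 758 and from 1993 to 544 and *CSPG4* from 2086 to 441 and from 2933 to 864. Of the myeloid markers 1 of 5 reached it, with sums of 178 to 212 against 26.6 to 37.5 at 24 hours and 177 to 213 against 29.1 to 48.9 at 48 hours. Endothelial markers (3 of 4) summed to 331 to 385 against 68.5 to 92.5 at 24 hours and 606 to 643 against 59.0 to 75.7 at 48 hours. In DMSO this sum was mostly *PECAM1*, whereas *KDR* went from 7.48 to 17.8 and from 7.10 to 12.3. Neuronal markers (2 of 4) summed to 702 to 837 against 745 to 857 at 24 hours and 701 to 884 against 798 to 922 at 48 hours, mostly *SYT1*, while *SNAP25* went from 33.3 to 11.5 and from 51.9 to 19.7. The part of the markers that moved in the results below was not tested. In bulk RNA, fewer cells of a type and less RNA per cell cannot be told apart.

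At 24 hours, *CCND1* and *CCND3* were higher with AZD5153 and *CDK4*, *CDK6*, *CCNE1*, *CDK2* and *RBL1* were lower, whereas *CCNE2* and *RB1* did not pass the test. That is 2 of 9 tested members higher and 5 lower, beside 33.9% and 34.6% of all genes tested. At 48 hours, 3 members were higher and 4 lower, beside 33.1% and 33.9% of all genes tested, the difference being *CCNE1*, which had moved from the lower to the higher members. These shares are near the background, so the counts are no result about the group, and what follows turns on the individual genes and the sizes of their changes. With libraries scaled to equal totals, the split over all genes at 48 hours was 3896 higher and 6511 lower, where the main scaling gave 5159 and 5294, and the median of all genes moved to -0.12 at 24 hours and -0.17 at 48 hours on the log2 scale, against 0.0004 and 0.0011.

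**Figure D1:**
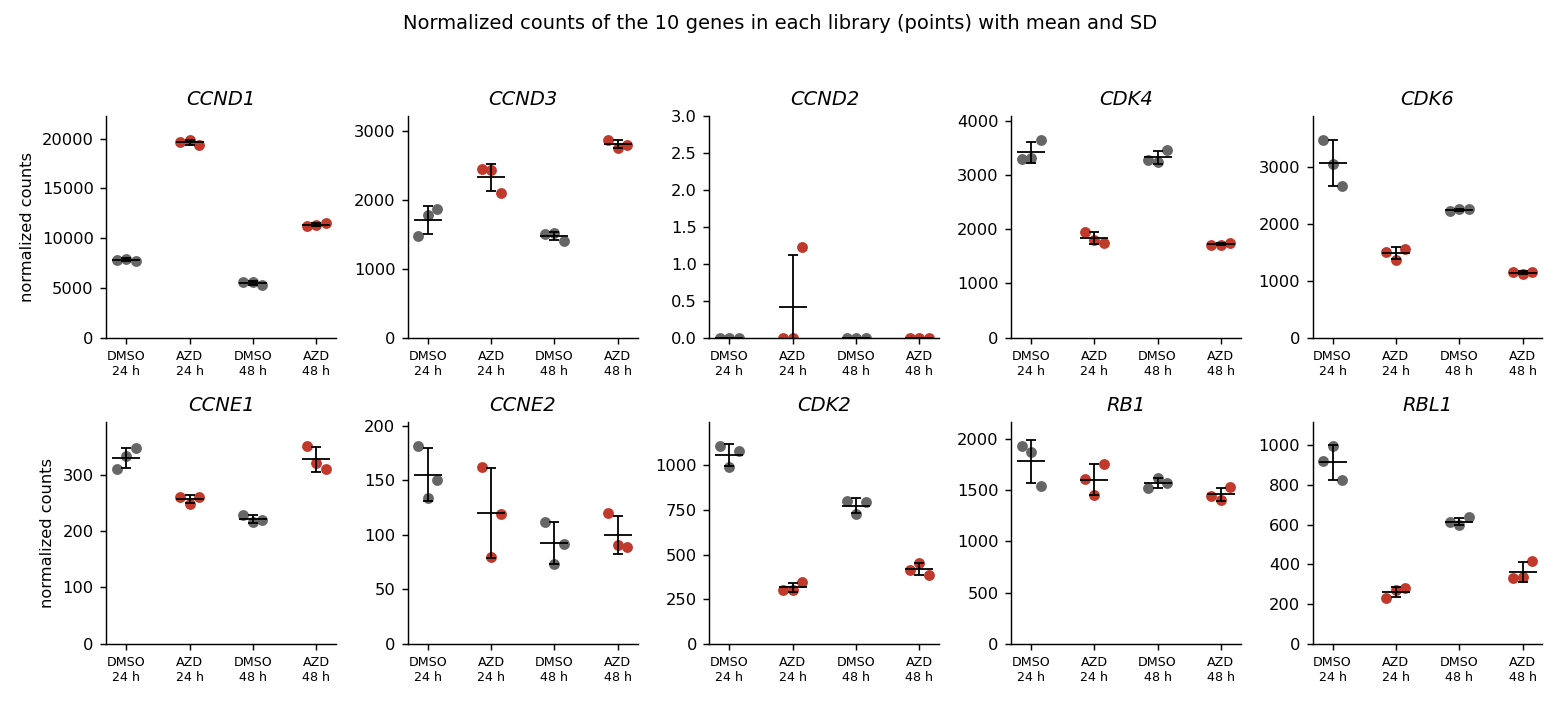
Normalized counts (y axes, each from 0, with its own scale) of the 10 members in the 4 groups of 3 libraries, DMSO in grey and AZD5153 in red, as points, with black lines for the mean ± SD. *CCND1* sits between 19400 and 19891 with AZD5153 at 24 hours against 7695 to 7951 in DMSO, *CDK2* and *RBL1* fall into separate ranges in all 4 groups, and the points of *RB1* and *CCNE2* overlap between treatments.

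*CCND1* (ENSG00000110092, chr11:69641156-69654474, plus strand) encodes cyclin D1, the D cyclin most often linked to growth signals. Its libraries at 24 hours read 7844, 7951 and 7695 normalized counts in DMSO and 19692, 19891 and 19400 with AZD5153. At 48 hours they read 5604, 5559 and 5277 in DMSO and 11235, 11281 and 11563 with AZD5153. Every AZD5153 library exceeded every DMSO library at both times, including those of the other time. *CCND1* therefore stood 2.51-fold higher at 24 hours (log2 fold change 1.33 ± 0.039, SE, n = 3 against 3, limma adjusted p = 1.68e-13) and 2.07-fold higher at 48 hours (1.05 ± 0.039, limma adjusted p = 2.22e-12).

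*CCND3* (ENSG00000112576, chr6:41934934-42050357, minus strand) encodes cyclin D3, which binds the same kinases. Its values were 1471, 1772 and 1859.7 normalized counts in DMSO and 2443, 2432 and 2099 with AZD5153 at 24 hours. At 48 hours they were 1503, 1520.4 and 1407 in DMSO and 2869, 2758 and 2791 with AZD5153. The groups did not overlap at either time, although the lowest DMSO value at 24 hours was that of the library that stood apart. The rise was 1.37-fold at 24 hours (log2 fold change 0.45 ± 0.081, SE, limma adjusted p = 0.000119) and 1.90-fold at 48 hours (0.93 ± 0.081, limma adjusted p = 4.61e-08). Without the first DMSO library the 24-hour log2 fold change of *CCND3* was 0.35 (limma adjusted p = 1.4e-05).

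*CCND2* (ENSG00000118971, chr12:4269771-4305353, plus strand) encodes cyclin D2. It had 0 reads in 11 libraries and 1 read in the third AZD5153 library at 24 hours. A count of 0 allows up to 3 reads, which was 2.14 to 4.02 normalized counts by library, for counting error only. No effect of AZD5153 on *CCND2* was detectable at this depth.

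*CDK4* (ENSG00000135446, chr12:57747727-57756013, minus strand) encodes one of the pair of kinases that D cyclins activate. It measured 3283, 3312 and 3645 normalized counts in DMSO and 1954, 1801 and 1748 with AZD5153 at 24 hours. The 48-hour libraries gave 3274, 3240.2 and 3451 in DMSO and 1714, 1705 and 1749.8 with AZD5153. Levels hardly differed between the times within a treatment, and the treatments were far apart. *CDK4* fell by 46.3% at 24 hours (log2 fold change -0.90 ± 0.057, SE, limma adjusted p = 1.12e-09) and fell by 48.1% at 48 hours (-0.95 ± 0.057, limma adjusted p = 5.94e-10).

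*CDK6* (ENSG00000105810, chr7:92604921-92836573, minus strand) encodes the other of these kinases. At 24 hours it measured 3473, 3050.0 and 2663 normalized counts in DMSO and 1509.7, 1362 and 1564 with AZD5153. At 48 hours it measured 2228, 2252 and 2264 in DMSO and 1149, 1108 and 1154 with AZD5153. The DMSO libraries at 24 hours were spread over a wider range than those of any other group, with an SD of 405 against 18.2 in DMSO at 48 hours. *CDK6* fell by 51.5% at 24 hours (log2 fold change -1.04 ± 0.079, SE, limma adjusted p = 9.07e-09) and fell by 49.4% at 48 hours (-0.98 ± 0.079, limma adjusted p = 1.88e-08).

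The D cyclins and their kinases thus moved in opposite directions in the same libraries. Scaled to the length of the canonical transcript, the summed level of *CCND1* and *CCND3* over that of *CDK4* and *CDK6* was 1.25, 1.35 and 1.25 in DMSO at 24 hours and 4.97, 5.44 and 5.24 with AZD5153. At 48 hours this ratio per kb was 1.06, 1.07 and 0.949 in DMSO and 4.00, 3.99 and 3.96 with AZD5153. The treated libraries lay far above the controls at both times, a log2 difference of 2.02 and 1.96. Within the kinases, the ratio of *CDK6* to *CDK4* per kb moved little, being 0.144 ± 0.026 (SD, n = 3) in DMSO and 0.129 ± 0.012 with AZD5153 at 24 hours, with 0.108 ± 0.0031 and 0.106 ± 0.0016 at 48 hours. Between the cyclins, the ratio of *CCND3* to *CCND1* per kb went from 0.455 ± 0.058 to 0.247 ± 0.018 at 24 hours, and at 48 hours it was 0.564 ± 0.0075 in DMSO and 0.517 ± 0.015 with AZD5153. The ratios were not tested. The summed ratio was not among those planned, and it restates the opposite changes of the single genes given above.

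**Figure D2:**
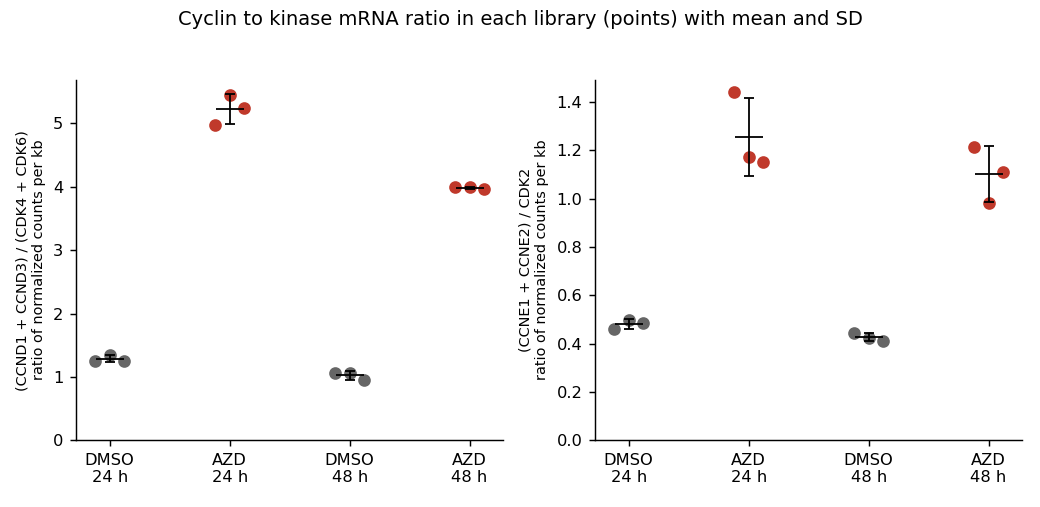
Ratio of summed cyclin to summed kinase level (y axes from 0, normalized counts per kb of canonical transcript) in each of 3 libraries per group, for *CCND1* and *CCND3* over *CDK4* and *CDK6* (left) and *CCNE1* and *CCNE2* over *CDK2* (right), with the mean ± SD in black. The left ratio sits between 0.949 and 1.35 in DMSO and between 3.96 and 5.44 with AZD5153, and the right ratio between 0.413 and 0.499 in DMSO and between 0.980 and 1.44 with AZD5153.

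*CCNE1* (ENSG00000105173, chr19:29811991-29824312, plus strand) encodes cyclin E1, a partner of CDK2 and itself an E2F target. At 24 hours its libraries gave 311, 333 and 347 normalized counts in DMSO and 260.1, 249 and 261 with AZD5153. At 48 hours they gave 229, 215 and 219 in DMSO and 351, 321 and 309.7 with AZD5153. All treated libraries were below the controls at 24 hours and above them at 48 hours, and the treated level at 48 hours was near that of the controls at 24 hours. *CCNE1* fell by 22.2% at 24 hours (log2 fold change -0.36 ± 0.092, SE, limma adjusted p = 0.00255) and rose 1.48-fold at 48 hours (0.56 ± 0.092, limma adjusted p = 5.59e-05). After quantile normalization the 24-hour change of *CCNE1* was -0.19 (limma adjusted p = 0.077), so that this call depends on the scaling.

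*CCNE2* (ENSG00000175305, chr8:94879770-94896678, minus strand) encodes cyclin E2 and was the least abundant member tested. It measured 181, 134 and 151 normalized counts in DMSO and 162, 79.9 and 119 with AZD5153 at 24 hours. At 48 hours the values were 112, 73.6 and 91.8 in DMSO and 120.4, 90.2 and 89.0 with AZD5153. The groups overlapped at both times, and the SE of its log2 fold change was 0.23, against 0.039 to 0.11 for the other members. The log2 fold change was -0.41 (95% interval -0.91 to 0.08, limma adjusted p = 0.128) at 24 hours and 0.12 (-0.38 to 0.61, limma adjusted p = 0.673) at 48 hours. The 24-hour value of *CCNE2* ran from -0.66 without the first AZD5153 library of that time, where it was called lower (limma adjusted p = 0.0222), to -0.15 without the second, where it was not. After quantile normalization the 48-hour value of *CCNE2* was 0.49, which was not called.

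*CDK2* (ENSG00000123374, chr12:55966781-55972789, plus strand) encodes the kinase that E cyclins activate. Its libraries at 24 hours read 1109, 989 and 1079 normalized counts in DMSO and 302, 300.0 and 346 with AZD5153. At 48 hours they read 802, 729.6 and 795 in DMSO and 415, 452 and 387 with AZD5153. No library of any group fell in the range of another group, and the treated level was higher at 48 than at 24 hours while the control level was lower. *CDK2* fell by 70.1% at 24 hours (log2 fold change -1.74 ± 0.086, SE, limma adjusted p = 5.45e-11) and fell by 46.1% at 48 hours (-0.89 ± 0.086, limma adjusted p = 1.62e-07).

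The summed level of *CCNE1* and *CCNE2* over that of *CDK2*, per kb, was 0.459, 0.499 and 0.486 in DMSO and 1.44, 1.17 and 1.15 with AZD5153 at 24 hours. At 48 hours it was 0.444, 0.423 and 0.413 in DMSO and 1.21, 0.980 and 1.11 with AZD5153. As with the D cyclins, the treated libraries did not overlap the controls. At 24 hours this came from a larger fall of the kinase than of the cyclin. At 48 hours it came from a fall of *CDK2* beside a rise of *CCNE1*. This summed ratio was also unplanned and untested, and restates the changes of the single genes. The ratio of *CCNE2* to *CCNE1* per kb overlapped between treatments at 24 hours, at 0.346 ± 0.071 (SD, n = 3) in DMSO and 0.341 ± 0.11 with AZD5153, and also at 48 hours, at 0.304 ± 0.054 and 0.222 ± 0.025, a log2 difference of -0.05 and -0.44.

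*RB1* (ENSG00000139687, chr13:48303744-48599436, plus strand) encodes the retinoblastoma protein, which restrains E2F. The values at 24 hours were 1932, 1876 and 1543 normalized counts in DMSO and 1605, 1456 and 1752 with AZD5153. At 48 hours they were 1524, 1616 and 1571 in DMSO and 1442, 1409 and 1528 with AZD5153. The treatments overlapped at both times. The log2 fold change was -0.15 (95% interval -0.33 to 0.03, limma adjusted p = 0.121) at 24 hours and -0.11 (-0.28 to 0.07, limma adjusted p = 0.274) at 48 hours, so a fall of *RB1* by over 0.33 on the log2 scale lies outside the interval at either time. *RB1* was called lower at 24 hours without the third DMSO library (-0.25, limma adjusted p = 0.0059) or the third AZD5153 library (-0.22, limma adjusted p = 0.0443) of that time, whereas the value was -0.089 without the first DMSO library and -0.082 without the second AZD5153 library. It was also called lower at both times with equal totals (-0.27 and -0.28) and at 48 hours after quantile normalization (-0.21, limma adjusted p = 0.0395).

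*RBL1* (ENSG00000080839, chr20:36996349-37095997, minus strand) encodes p107, an RB relative that mainly binds the repressor E2Fs. At 24 hours it measured 921, 995 and 822 normalized counts in DMSO and 229, 269 and 279 with AZD5153. At 48 hours it measured 611, 598 and 636 in DMSO and 331, 334 and 418 with AZD5153. The 4 groups did not overlap one another. *RBL1* fell by 71.5% at 24 hours (log2 fold change -1.81 ± 0.11, SE, limma adjusted p = 4.61e-10) and fell by 41.5% at 48 hours (-0.77 ± 0.11, limma adjusted p = 9.73e-06). Its level relative to *RB1*, per kb, was 0.430 ± 0.027 in DMSO and 0.136 ± 0.018 with AZD5153 at 24 hours, and 0.329 ± 0.016 against 0.207 ± 0.020 at 48 hours (SD, n = 3).

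**Figure D3:**
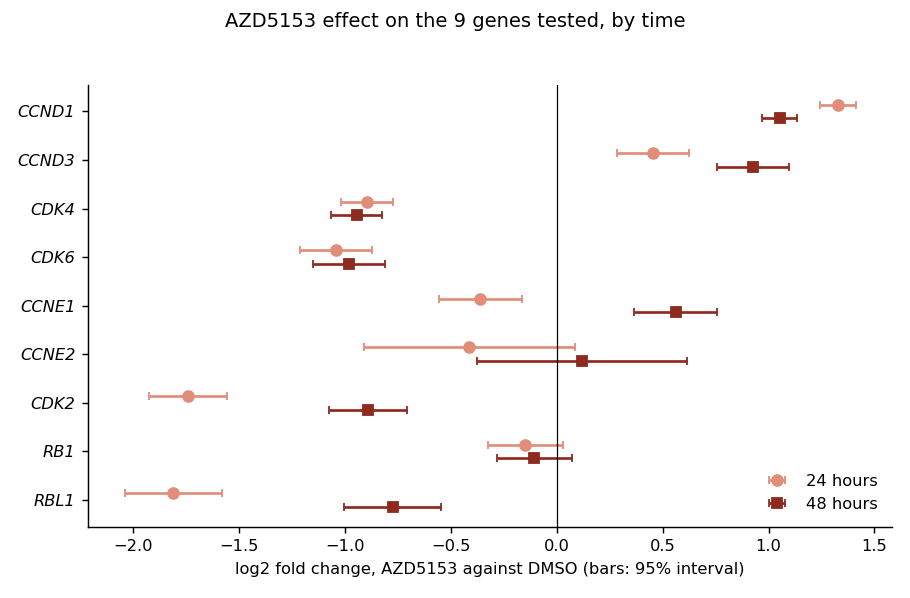
Log2 fold change of AZD5153 against DMSO (x axis) for the 9 members tested, at 24 hours (light circles) and 48 hours (dark squares), with 95% intervals from limma as bars. *CCND1* and *CCND3* lie to the right of 0 and *CDK4*, *CDK6*, *CDK2* and *RBL1* to the left at both times, *CCNE1* crosses from -0.36 to 0.56, and the intervals of *CCNE2* and *RB1* include 0.

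The effect of AZD5153 was then compared between the times, each time with its own DMSO libraries. Of the 9 members, 4 had a higher effect at 48 than at 24 hours and 1 a lower effect, beside 14.4% and 10.1% of all genes tested. The difference was 1.04 on the log2 scale for *RBL1* (limma adjusted p = 0.000174), 0.92 for *CCNE1* (limma adjusted p = 0.000129) and 0.85 for *CDK2* (limma adjusted p = 0.000146). These genes of the cyclin E step, with the E2F-regulated *RBL1*, had the largest differences between times among the members. The difference was 0.47 for *CCND3* (limma adjusted p = 0.00717), which rose further, and -0.28 for *CCND1* (limma adjusted p = 0.00214), which rose less. With libraries scaled to 7 stably expressed genes, the difference for *CCND1* was -0.20 (limma adjusted p = 0.0504). For *CDK4* the difference was -0.05 (95% interval -0.22 to 0.12, limma adjusted p = 0.697) and for *CDK6* 0.06 (limma adjusted p = 0.738), and neither *RB1* (0.04, limma adjusted p = 0.822) nor *CCNE2* (0.53, limma adjusted p = 0.264) passed the test. The difference for *CCNE2* ran from 0.27 without the second AZD5153 library at 24 hours to 0.77 without the first.

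Levels of the members also differed between 48 and 24 hours without AZD5153. In DMSO, 0 members were higher and 6 lower at 48 than at 24 hours, beside 16.4% and 19.3% of all genes tested. Over all genes, the split was 3127 higher and 2440 lower with equal totals, against 2551 and 3015 in the main scaling. The falls on the log2 scale were 0.75 for *CCNE2*, 0.58 for *CCNE1*, 0.57 for *RBL1*, 0.52 for *CCND1*, 0.45 for *CDK2* and 0.44 for *CDK6*, with limma adjusted p-values from 2.2e-07 for *CCND1* to 0.0197 for *CCNE2*. The fall of *CCNE2* was not called without the second (-0.60, limma adjusted p = 0.0965) or the third (-0.76, limma adjusted p = 0.0506) DMSO library at 48 hours. *CDK4* (-0.04, limma adjusted p = 0.641), *RB1* (-0.18, limma adjusted p = 0.111) and *CCND3* (-0.20, limma adjusted p = 0.069) did not pass the test. Without the first DMSO library at 24 hours *CCND3* was called lower (-0.30, limma adjusted p = 0.000373), and without the third so was *RB1* (-0.28, limma adjusted p = 0.00612).

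With AZD5153, 4 members were higher and 2 lower at 48 than at 24 hours, beside 15.8% and 13.8% of all genes tested. Scaling to 7 stably expressed genes gave 3406 higher and 1375 lower over all genes, against 2472 and 2155 in the main scaling. *RBL1* rose by 0.47 on the log2 scale (limma adjusted p = 0.0036), *CDK2* by 0.40 (limma adjusted p = 0.00234), *CCNE1* by 0.35 (limma adjusted p = 0.00979) and *CCND3* by 0.27 (limma adjusted p = 0.0174). *CDK2*, *CCNE1* and *RBL1* thus fell with time in DMSO and rose with time in AZD5153. *CCND1* fell by 0.79 (limma adjusted p = 1.59e-09) and *CDK6* fell by 0.38 (limma adjusted p = 0.00205), as both did in DMSO. The rise of *CCND3* was not called without the third AZD5153 library at 24 hours (0.20, limma adjusted p = 0.0908) or the first at 48 hours (0.26, limma adjusted p = 0.0623), and that of *CCNE1* was not called without the first AZD5153 library at 48 hours (0.30, limma adjusted p = 0.0506). Fitting eBayes without the trend also lost the call of *CCND3* (0.27, limma adjusted p = 0.0571). The 2 times were separate libraries, and processing that differed between times cannot be told apart from time.

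**Figure D4:**
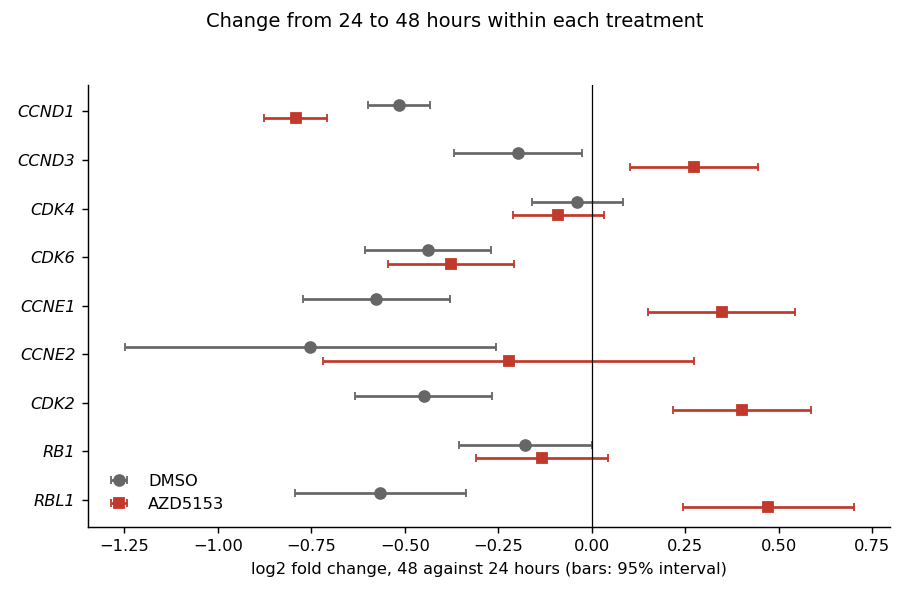
Log2 fold change of 48 against 24 hours (x axis) for the 9 members tested, in DMSO (grey circles) and AZD5153 (red squares), with 95% intervals from limma as bars. All 9 grey circles lie below 0, whereas the red squares of *CCND3*, *CCNE1*, *CDK2* and *RBL1* lie between 0.27 and 0.47.

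Scaled to transcript length, the members also changed places. In DMSO at 24 hours, *CCND1* (1848 ± 30.4 normalized counts per kb, SD, n = 3) and *CDK4* (1830 ± 108) led with overlapping values, followed by *CCND3* (839), *CDK2* (473), *RB1* (374), *CDK6* (263), *CCNE1* (169) and *RBL1* (161), which overlapped, and *CCNE2* (58.1). With AZD5153 at 24 hours *CCND1* stood alone at 4639 ± 58.3 per kb, and *CCND3* (1147 ± 96.4) and *CDK4* (983 ± 57.2) overlapped. *CDK2* dropped below *RB1*, to 141 against 336 per kb, and *RBL1* (45.6) to the level of *CCNE2* (45.0), with overlapping values. At 48 hours in DMSO, *CDK4* (1781 ± 60.6 per kb) was above *CCND1* (1293 ± 41.8). With AZD5153 at 48 hours the order was *CCND1* (2680 per kb), *CCND3* (1385), *CDK4* (924), *RB1* (306), *CDK2* (187) and *CCNE1* (167), which overlapped, *CDK6* (97.5), *RBL1* (63.5) and *CCNE2* (37.3). A different transcript in use would change these lengths.

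The spans of other genes, introns included, overlap some members on the opposite strand. The strand setting of the counting is not stated, so reads of the partners cannot be told apart where they overlap. Values of the partners are for the whole gene. For *CCND1* the partner *LTO1* averaged 695 normalized counts against 11082 over all libraries, and for *CDK2* the partner *PMEL* averaged 28.9. *CDK4* overlaps *TSPAN31*, which went from 321 to 601 normalized counts at 24 hours, and *MARCHF9*, which went from 681 to 269. At *CCNE2*, *INTS8* averaged 799 and *NDUFAF6* 142 normalized counts against 117 for *CCNE2* itself. At 24 hours *INTS8* went from 576 to 1124 and *NDUFAF6* from 199 to 109, where *CCNE2* went from 155 to 120. Processed pseudogenes named after *CCND2*, *CCND3* and *CDK4* were at 0.22 normalized counts or less.

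For each cyclin the genes with the most similar pattern over the 12 libraries were found by Pearson's r on the log2 scale, as a description of libraries that share their treatment and time. *CCND1* was most like *CPA4* (r = 0.998) and *URB1* (r = 0.993), and *CCND3* most like *GNA11* (r = 0.993) and *GPS1* (r = 0.992). *CCNE1* was most like *ATRIP* (r = 0.937) and *RAD1* (r = 0.935), and *CCNE2* most like *RBM22* (r = 0.840) and *SLC25A28* (r = 0.837).

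The rest of the G1/S pathway gives the surroundings of these genes. Its lists were written with earlier results of these data known, so their counts are a description and no independent support. Of 24 E2F target genes of G1/S, 24 were lower at 24 hours, and 22 were lower and 2 higher at 48 hours, beside 34.6% of all genes tested lower at 24 hours and 33.9% lower and 33.1% higher at 48 hours. They had a median log2 fold change of -1.65 and -0.99, where the median of all genes tested was 0.0004 and 0.0011. *MCM5*, a subunit of the replicative helicase, was 5.57-fold lower at 24 hours (limma adjusted p = 1.17e-12) and 4.59-fold lower at 48 hours, and *CCNA2*, the cyclin A2 that takes over CDK2 in S phase, was 6.58-fold lower and 3.09-fold lower. The 2 that were higher at 48 hours were *RRM2* (0.52, limma adjusted p = 1.69e-07), a subunit of ribonucleotide reductase, and *SLBP* (0.16, limma adjusted p = 0.00637), which binds histone mRNA, both named after their values were seen. All 5 members called lower at 24 hours, *CDK4*, *CDK6*, *CCNE1*, *CDK2* and *RBL1*, moved the same way as this list at that time. *CCNE2* was not called, and *CCNE1* was higher at 48 hours (0.56).

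Among the 11 genes of the list of E2F, DP and RBL2, 9 were lower at 24 hours and 10 lower and 1 higher at 48 hours, with medians of -0.91 and -0.51, beside the same shares of all genes (34.6% lower at 24 hours, 33.9% lower and 33.1% higher at 48 hours). *E2F2*, an activator E2F, went from 542, 614 and 643 normalized counts in DMSO to 22.8, 20.48 and 29.4 with AZD5153 at 24 hours (log2 fold change -4.59, limma adjusted p = 3.93e-12), and was at -3.44 at 48 hours. *E2F8*, an atypical E2F that represses, was at -4.38 and -2.29, and *E2F1*, which RB binds, at -0.91 and -0.38 (limma adjusted p = 1.75e-06 and 0.00537). *RBL2*, the remaining RB relative (p130), fell by 1.18 and 0.86 on the log2 scale, so both relatives of *RB1* were lower, while *RB1* did not pass the test. In the MuvB core and MYB partners, which with RBL1 or RBL2 form the DREAM repressor complex and with MYB proteins an activator, 7 of 8 were lower at each time, beside 34.6% and 33.9% of all genes, with medians of -1.38 and -0.57. *LIN9*, a MuvB subunit, stood at -2.36 and -1.16, and *FOXM1*, which works with MuvB in G2, at -1.67 and -1.99.

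Of 6 CDK inhibitors tested, 3 were higher and 3 lower at 24 hours and 2 higher and 3 lower at 48 hours, counts near the background of 33.9% and 34.6% of all genes at 24 hours and 33.1% and 33.9% at 48 hours. *CDKN1A*, which encodes p21, an inhibitor of CDK2, went from 210, 290 and 266 normalized counts in DMSO to 7095, 7193 and 6638 with AZD5153 at 24 hours. That is 27.5-fold at 24 hours (log2 fold change 4.78 ± 0.10, SE, limma adjusted p = 5.63e-15) and 16.4-fold at 48 hours (4.03 ± 0.10, limma adjusted p = 4.37e-14). *CDKN1B*, which encodes p27, was lower at 24 hours (-0.56, limma adjusted p = 4.96e-06) and at 48 hours (-0.21, limma adjusted p = 0.0205), but the 48-hour call was lost when any of 4 libraries of that time was left out, with a limma adjusted p from 0.053 to 0.0987. Of the INK4 inhibitors of CDK4 and CDK6, *CDKN2A* fell by 0.63 and 1.10 and *CDKN2C* fell by 0.38 and 0.60 on the log2 scale. *CDKN2D* was at 0.54 (limma adjusted p = 0.0436) and 0.76 (limma adjusted p = 0.00775), but the 24-hour call was lost in 16 of 25 alternatives, and without the DMSO library that stood apart its value was 0.19 (limma adjusted p = 0.247). The median of the CDK inhibitors was 0.07 at 24 hours and -0.11 at 48 hours, and the former was -0.14 without that library and the latter -0.28 with equal totals.

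Of 9 genes of CDK activation, 3 were higher and 5 lower at 24 hours and 3 higher and 4 lower at 48 hours, with medians of -1.12 and -0.04, and these counts too lie near the background of 33.9% higher and 34.6% lower at 24 hours and 33.1% and 33.9% at 48 hours. With equal totals the 48-hour median of CDK activation was -0.21. *CDK7*, the kinase that activates CDKs, was at 0.46 and 0.72, and *CDC37*, the chaperone that folds CDK4 and CDK6, at 0.54 and 0.48. *CDC25C*, a phosphatase that activates CDK1, was at -2.15 and -1.39, and *PKMYT1*, a kinase that holds CDK1 back, at -1.95 and -1.46. In the list of G1 cyclin and p27 turnover, 7 of 15 were higher and 7 lower at 24 hours and 8 higher and 5 lower at 48 hours, beside the same shares, with medians of 0.12 and 0.25. The 24-hour median of this list of G1 cyclin and p27 turnover ran from 0.0081 without the first AZD5153 library of that time to 0.27 without the third, and its 48-hour median was 0.080 with equal totals. *FBXO31* and *FBXO4*, F-box proteins linked to cyclin D1 degradation, moved apart, at 1.42 and 0.67 for the former and -1.89 and -1.67 for the latter. *SKP1*, the adaptor of SCF ubiquitin ligases, was at 0.61 and 1.07, and *CKS1B*, needed by SKP2 to degrade p27, at -1.74 and -0.997. Of the later S, G2 and M cyclins and CDK1, 5 of 5 tested were lower at 24 hours and 4 of 5 at 48 hours, beside 34.6% and 33.9% of all genes, with medians of -1.73 and -1.07. *CDK1*, the mitotic kinase, was at -2.43 and -0.98. *CCNA2*, *CDK1* and *CDC25A* each stand in more than 1 of these lists.

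**Figure D5:**
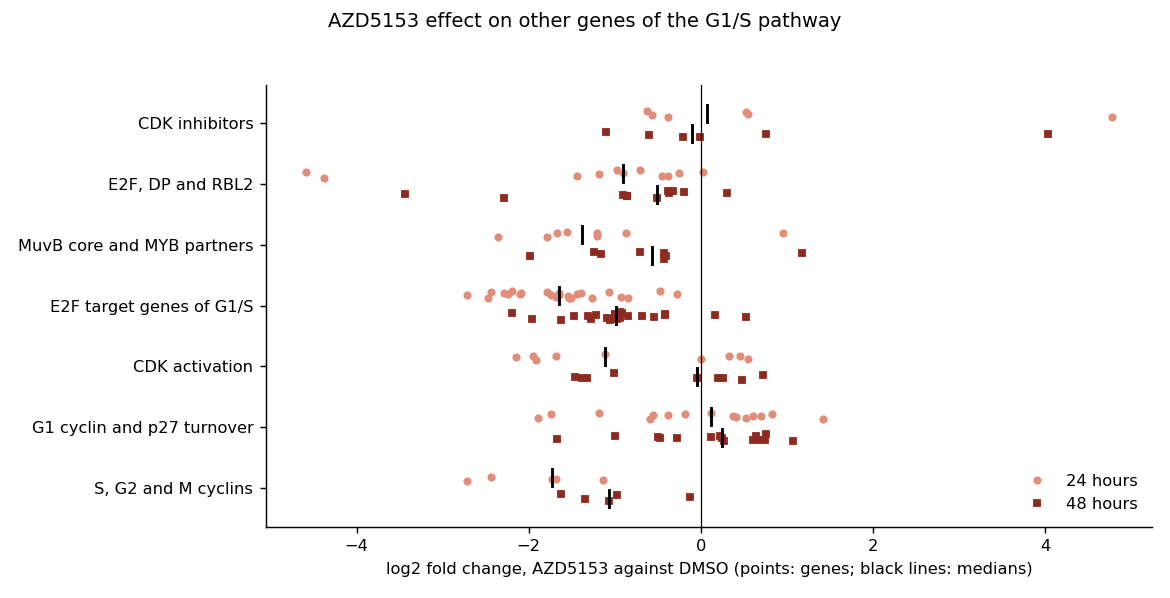
Log2 fold change of AZD5153 against DMSO (x axis) for every tested gene of 7 pathway lists (rows), at 24 hours (light circles) and 48 hours (dark squares), with list medians as black lines. Points of the E2F target genes lie left of 0 at 24 hours, with a median of -1.65, and the inhibitor *CDKN1A* lies farthest to the right, at 4.78 and 4.03.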

How the data were processed

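RNA was extracted from SF8628 DMG cells, and paired-end RNA-Seq reads were checked with FastQC, aligned to hg38 with STAR and counted on genes with HTSeq by the authors, whose versions, annotation and strand setting are not given in the sources used here. The deposited signal for each library is the gene count divided by a DESeq2 size factor. The same table holds results of the authors' own comparison of AZD5153 with DMSO, namely log2 fold changes, a test score and p-values, and none of these deposited columns was used. All values (100%) were whole multiples of a step per library (tolerance 0.1 read), so reads were recovered. There were 0 entries naming no gene. H3K27ac CUT&RUN and IgG samples were not analysed here.

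Gene names and positions came from GENCODE on GRCh38 by gene identifier (60463 of 60664 matched). Values were taken as log2(normalized count + 1), so that fold changes are on this scale, for genes with a mean of at least 10 over 12 libraries. One 4-group fit was made with limma (version 3.58.1, R 4.3.3; lmFit, eBayes with trend, Benjamini-Hochberg over all 15599 genes tested, threshold 0.05), and the scripts were tested on simulated data. edgeR (4.0.16) and DESeq2 (1.42.0) on the recovered reads were alternatives, with other pseudocounts, filters and scalings and each library left out in turn. Levels of members were compared with each other per kb of the canonical transcript. Genes whose spans, introns included, overlap a member are given as normalized counts of the whole gene, not of the shared bases. The members and the pathway lists were chosen with earlier results of these data known. Besides the members, *RBL2*, *E2F1*, *CDKN1A*, *CDKN1B* and *CDKN2A* were always named, and from each list the 2 largest increases and 2 largest decreases of the effect over both times among genes averaging 100 or more and called in the same direction at both times, and for each cyclin the 2 genes with the highest Pearson's r. Groups of 3 libraries limit the precision, and the depth was 15759148 to 27335220 reads on genes. *CCND2* had at most 1 read in a library and *CCNE2* 78 to 188. One marker gene of the glial list is not reported here.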

Additional observations from a re-analysis of the deposited data

Results flagged for a closer look

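These results stand out because the effect of AZD5153 differed between 48 and 24 hours by the interaction term of the limma fit. Among the members the difference (48 minus 24 hours, log2) was 1.04 for *RBL1*, 0.92 for *CCNE1*, 0.85 for *CDK2*, 0.47 for *CCND3* and -0.28 for *CCND1*. *CCNE1* was the one whose effect changed direction, from -0.36 at 24 hours to 0.56 at 48 hours, with all treated libraries below the controls at the first time and above them at the second. *CDK2* and *RBL1* stayed lower at both times, at -1.74 and -0.89 for *CDK2* and -1.81 and -0.77 for *RBL1*.

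The difference was also called for 14 of the 22 other named genes, beside 14.4% higher and 10.1% lower over all genes tested. Most of the 22 were named for the size of their AZD5153 effects, so this count is no result about them. Among those that were lower at both times, the difference was 2.08 for *E2F8*, 1.46 for *CDK1*, 1.19 for *LIN9*, 1.14 for *E2F2*, 1.09 for *CCNA2*, 0.76 for *CDC25C*, 0.75 for *CKS1B*, 0.53 for *E2F1*, 0.36 for *CDKN1B*, 0.32 for *RBL2* and -0.32 for *FOXM1*. Among those that were higher at both times, it was 0.46 for *SKP1*, -0.74 for *FBXO31* and -0.75 for *CDKN1A*. *FOXM1* therefore moved further down at 48 hours, whereas the other 10 genes that fell were nearer to their controls. The time comparisons use separate DMSO libraries, and processing that differed between times cannot be told apart from time. Single values were not searched for outlying samples within groups of 3 libraries.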

How the results depend on the processing

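Of 1116 alternative values for the 45 log2 fold changes of the members, 1085 kept their direction and their side of the threshold, 8 lost a call, 9 gained one and 14 changed sign. Counts of members called were within 1.5 times the main count, except with a minimum log2 fold change of 1 in size, which left 4 members at 24 hours, 1 at 48 hours, 1 for the difference between times, 0 for time in DMSO and 0 for time in AZD5153. With the same minimum, 1690 of all 15599 genes tested were higher and 2450 lower at 24 hours, and 1379 and 2580 at 48 hours. The counts were 196 and 558 for the difference, 485 and 95 for time in DMSO and 286 and 287 for time in AZD5153. Leaving out 1 library gave 7 to 8 members called at 24 hours, 7 at 48 hours and 5 for the difference. It gave 5 to 7 for time in DMSO and 4 to 6 for time in AZD5153.

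The values that changed sign were all of uncalled effects or untested medians. With equal totals, *CCNE2* at 48 hours was -0.052, the difference between times of *RB1* was -0.0044, *CDK4* with time in DMSO was 0.015, and the 24-hour medians of the CDK inhibitors and of G1 cyclin and p27 turnover were -0.054 and -0.0066. With quantile normalization, the difference between times was -0.025 for *CDK6* and -0.044 for *RB1*, and *CDK4* with time in DMSO was 0.069. With 7 stably expressed genes, the difference for *CDK4* was 0.022. With 1 library left out, the values ran from -0.034 to 0.26 for *CCNE2* at 48 hours, from -0.034 to 0.16 for the difference of *CDK6*, from -0.024 to 0.14 for that of *RB1*, from -0.066 to 0.0100 for *CDK4* with time in DMSO, from -0.49 to 0.021 for *CCNE2* with time in AZD5153, and from -0.14 to 0.15 for the median of the CDK inhibitors at 24 hours. The cause was not tested.

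Libraries of different groups share only a replicate number. Of 18 pairs of same-numbered libraries, 2 had a correlation of their deviations over 0.1 (range -0.43 to 0.16). With a replicate block, 8 members were called at 24 hours, *CCNE2* being the addition (adjusted p = 0.0326), and 7, 5, 6 and 6 in the other comparisons, and not every library correlated best with its own number. Over all 15599 genes tested, the replicate block gave 5207 higher and 5319 lower at 24 hours. *CCND2* was limited by depth, and *CCNE2* had few reads, a wide spread and overlapping neighbours.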
